A study of Mus musculus with 16 samples.

Results

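The 44 genes described here encode the enzymes that bring pyruvate into the mitochondrial matrix and oxidise it to acetyl-CoA, the enzymes of the citrate cycle, and the enzymes that break down the branched-chain amino acids leucine, isoleucine and valine. They were chosen by name, as the array probes whose RefSeq accession matched the listed symbols, with the probe of the highest mean signal kept for each gene. All 44 were measured, among 24826 genes tested, and each was well above background on all 16 arrays. The tissue was tibialis anterior, a muscle at the front of the shin made mostly of fast fibres, taken from mouse offspring. The 4 groups were offspring of dams given 50% less food in week 3 of gestation and themselves calorie restricted (undernourished CR), offspring of such dams fed ad libitum (undernourished AL), offspring of normally fed dams that were calorie restricted (control CR), and offspring of normally fed dams fed ad libitum (control AL). Each group had 8 mice combined in pairs into 4 RNA pools, each hybridised to its own 1-colour array. Strain, sex, age and the extent of calorie restriction are not given in the sources used here, and no label says whether pooled mice shared a litter, so p-values measure the spread between pools.

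Pyruvate enters the matrix through a carrier of Mpc1 and Mpc2 and is turned into acetyl-CoA by the pyruvate dehydrogenase complex. Citrate synthase joins acetyl-CoA to oxaloacetate, and the cycle then releases carbon dioxide and feeds electrons to the respiratory chain. Branched-chain amino acids are first transaminated in muscle by Bcat2, and the resulting ketoacids are committed to oxidation by the branched-chain ketoacid dehydrogenase complex, which the kinase Bckdk switches off and the phosphatase Ppm1k switches on. Further steps yield acetyl-CoA from leucine, acetyl-CoA and propionyl-CoA from isoleucine, and propionyl-CoA from valine, and propionyl-CoA returns to the citrate cycle as succinyl-CoA.

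All signals below are log2 values relative to the 75th percentile of the same array, so that 0 is the level of that percentile, and a probe's signal is compared only with the same probe on other arrays. All 10 fast fibre and all 10 slow fibre markers were well above background on every array. Brain transcripts ran with the offspring diet. Of 30, the median log2 signal was -6.29 to -5.62 in undernourished CR, -2.45 to -1.46 in undernourished AL, -6.04 to -5.78 in control CR and -1.95 to 0.74 in control AL, so every AL array was above every CR array. Under CR, 17 of the 29 tested were called lower and 1 higher in undernourished offspring (median difference -2.55), and 26 lower and 1 higher in control offspring (-4.73). The flag for a signal well above background was set on every CR array for 15 of the 30. The summed signal of 30 brain transcripts, set to 1 on the highest array, was 0.129 to 0.14 on the undernourished CR arrays, 0.129 to 0.247 in undernourished AL, 0.129 to 0.173 in control CR, and 1, 0.745, 0.236 and 0.192 on control AL replicates 1 to 4. The sum of 14 skin transcripts on the same kind of scale was 0.0177 to 0.0694 in undernourished CR, 0.0226 to 0.0530 in undernourished AL, 0.0175 to 0.0244 in control CR and 0.0251 to 1 in control AL, where replicate 4 was the lowest. Under CR 0 of the 14 were called in undernourished offspring and 13 were called lower in control offspring. The 14 leukocyte and macrophage transcripts summed to 0.280 to 0.439 in undernourished CR, 0.362 to 0.684 in undernourished AL, 0.230 to 0.338 in control CR and 0.492 to 1 in control AL, and 1 was called lower under CR in undernourished and 12 in control offspring. The sum of 11 liver transcripts was 0.343 to 0.526 in undernourished CR, 0.382 to 1 in undernourished AL, with replicate 3 at 1, 0.292 to 0.583 in control CR and 0.343 to 0.794 in control AL, with replicates 1 and 2 at 0.794 and 0.690, and 0 of the 8 tested were called in either comparison. The sum of the 10 fast fibre markers was 0.558 to 0.748 in undernourished CR, 0.873 to 1 in undernourished AL, 0.628 to 0.751 in control CR and 0.719 to 0.951 in control AL, and under CR 4 of the 10 were called lower in undernourished and 2 in control offspring. Of the 10 slow fibre markers 1 was called lower in undernourished and 0 in control offspring. The share of fibre types and of other tissues in the results below was not tested, beyond the fits named there. All AL arrays were on slides 1 and 2, scanned on 1 day, and all CR arrays on slides 3 and 4, scanned on another, so offspring diet, slide and scan day cannot be told apart. Each slide held both maternal groups.

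Calorie restriction was compared with ad libitum feeding within each maternal group, with limma across all genes and Benjamini-Hochberg adjustment at 0.05. In offspring of undernourished dams 6 of the 44 genes were higher under CR and 1 was lower, where 10.3% of all genes tested were called higher and 9.82% lower (20.1% in all). The 6 were Acadsb, Ppm1k, Idh2, Sdha, Bckdk and Pdha1, and the lower one was Mdh2. In offspring of control dams 15 genes were higher and 1 was lower, where 16.8% of all genes were called higher and 15.1% lower (31.9% in all). The higher genes were Mpc1, Pdha1, Dlat, Idh2, Idh3a, Ogdh, Dlst, Suclg1, Sdha, Bckdk, Acadsb, Hibadh, Acat1, Pcca and Pccb, and the lower one was Dbt. The median log2 difference of the 44 genes was 0.18 in undernourished and 0.32 in control offspring, beside -0.0036 and 0.06 over all genes. Differences were above 0 for 37 of the 44 in undernourished and 38 of the 44 in control offspring. In a bulk extract, fewer cells of a type and less RNA per cell cannot be told apart.

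**Figure D1:**
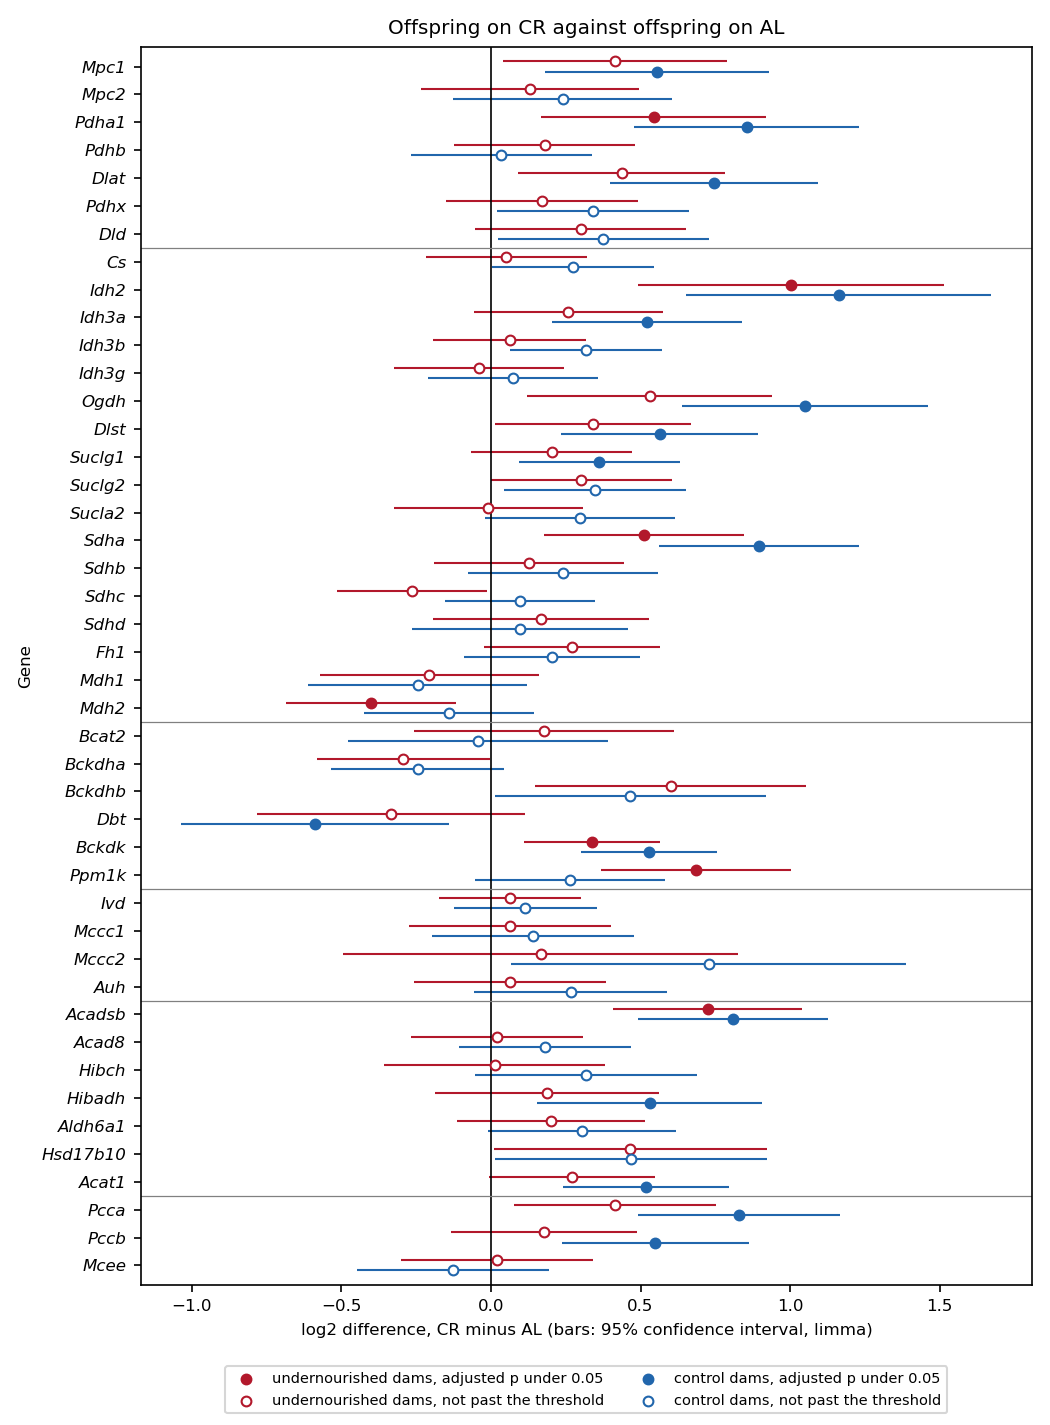
Log2 difference (horizontal axis, CR minus AL) of each of the 44 genes (vertical axis), in offspring of undernourished dams (red) and of control dams (blue), with 95% confidence intervals from limma on 4 arrays a group. Filled points passed an adjusted p of 0.05. Idh2 stands at 1.0 and 1.16, Mdh2 at -0.40 and -0.14, and most other points lie between 0 and 1.

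Both counts depended on which arrays were used. The median of the 44 genes, each taken relative to its own mean, was 0.05 to 0.41 on the undernourished CR arrays, -0.09 to 0.07 in undernourished AL and 0.05 to 0.20 in control CR, and it was -0.52, -0.38, -0.11 and 0.04 on control AL replicates 1 to 4. In control AL, 36 of the 44 genes were lower on both slide 1 arrays than on both slide 2 arrays, and none was higher on both. Of all genes tested, 42.6% were lower on both slide 1 arrays. These are the 2 arrays with the most brain transcript. Without both of them, 8 genes were higher and 1 lower in undernourished offspring (12% and 12.5% of all genes), and 7 and 1 in control offspring (7.46% and 10.2%). With the brain transcript sum as a covariate, 7 were higher and 1 lower in undernourished offspring (12.1% and 13.5% of all genes), and 6 and 1 in control offspring (6.53% and 9.69%). That sum was 0.129 to 0.14 in undernourished CR and 0.129 to 0.247 in undernourished AL, so it overlapped where the medians of the brain transcripts did not. The covariate could therefore adjust the undernourished comparison for those transcripts only in part. Without the 5 arrays on which skin or liver transcripts stood out (undernourished CR replicate 2, undernourished AL replicate 3 and control AL replicates 1 to 3), which leaves a single control AL array assumed to vary like the other groups, 3 were higher in undernourished offspring, namely Idh2, Ppm1k and Acadsb (6.68% of all genes higher and 7.57% lower). In control offspring 0 were then called by limma (1.13% and 2.45%), Ogdh having the smallest adjusted p, 0.104, among the genes called with all arrays. With slide as a random block, 3 were higher in undernourished offspring (7.77% and 7.82% of all genes) and 13 in control offspring (13.9% and 13.3%). The count of 7 in undernourished offspring was 3 without undernourished AL replicate 1 or 3 or undernourished CR replicate 1 or 2, and 4 without undernourished AL replicate 2, where the share of all genes was 7.46% to 9.81% higher and 7.03% to 8.94% lower.

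The scaling mattered as well. With quantile normalisation 8 of the 44 genes were called in undernourished offspring, with Sdha, Mdh2 and Bckdk lost and Mpc1, Sdhc, Fh1 and Bckdhb new. Of all 24826 genes, 3391 were then called higher and 2037 lower. In control offspring 17 were called, with Suclg1 and Hibadh lost and Cs, Mdh1 and Bckdha new, beside 5550 of all genes higher and 3266 lower. The median difference there was 0.16 for the 44 genes and 0.16 for all genes. In the authors' deposited log2 table, tested in the same way, 41 of the 44 genes were higher under CR and 0 lower in undernourished offspring, where 41.6% of all genes were higher and 6.15% lower. In control offspring 40 were higher and 0 lower, where 45.9% of all genes were higher and 10.5% lower. With normexp background correction 19 were higher and 1 lower in undernourished offspring (12.2% and 40.9% of all genes), and 25 and 1 in control offspring (17.0% and 33.9%). With the mean over a gene's probes 10 were higher and 1 lower in undernourished offspring (10.1% and 10.2% of all genes), and 19 and 1 in control offspring (17.3% and 15.6%). When only the arrays compared were fitted, 4 were higher in undernourished offspring (8.43% and 9.64%) and 13 in control offspring (14% and 13.4%). With the replicate number as a block, 3 were higher in undernourished offspring (7% and 7.32%), and 15 were higher and 1 lower in control offspring (13.4% in each direction).

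**Figure D2:**
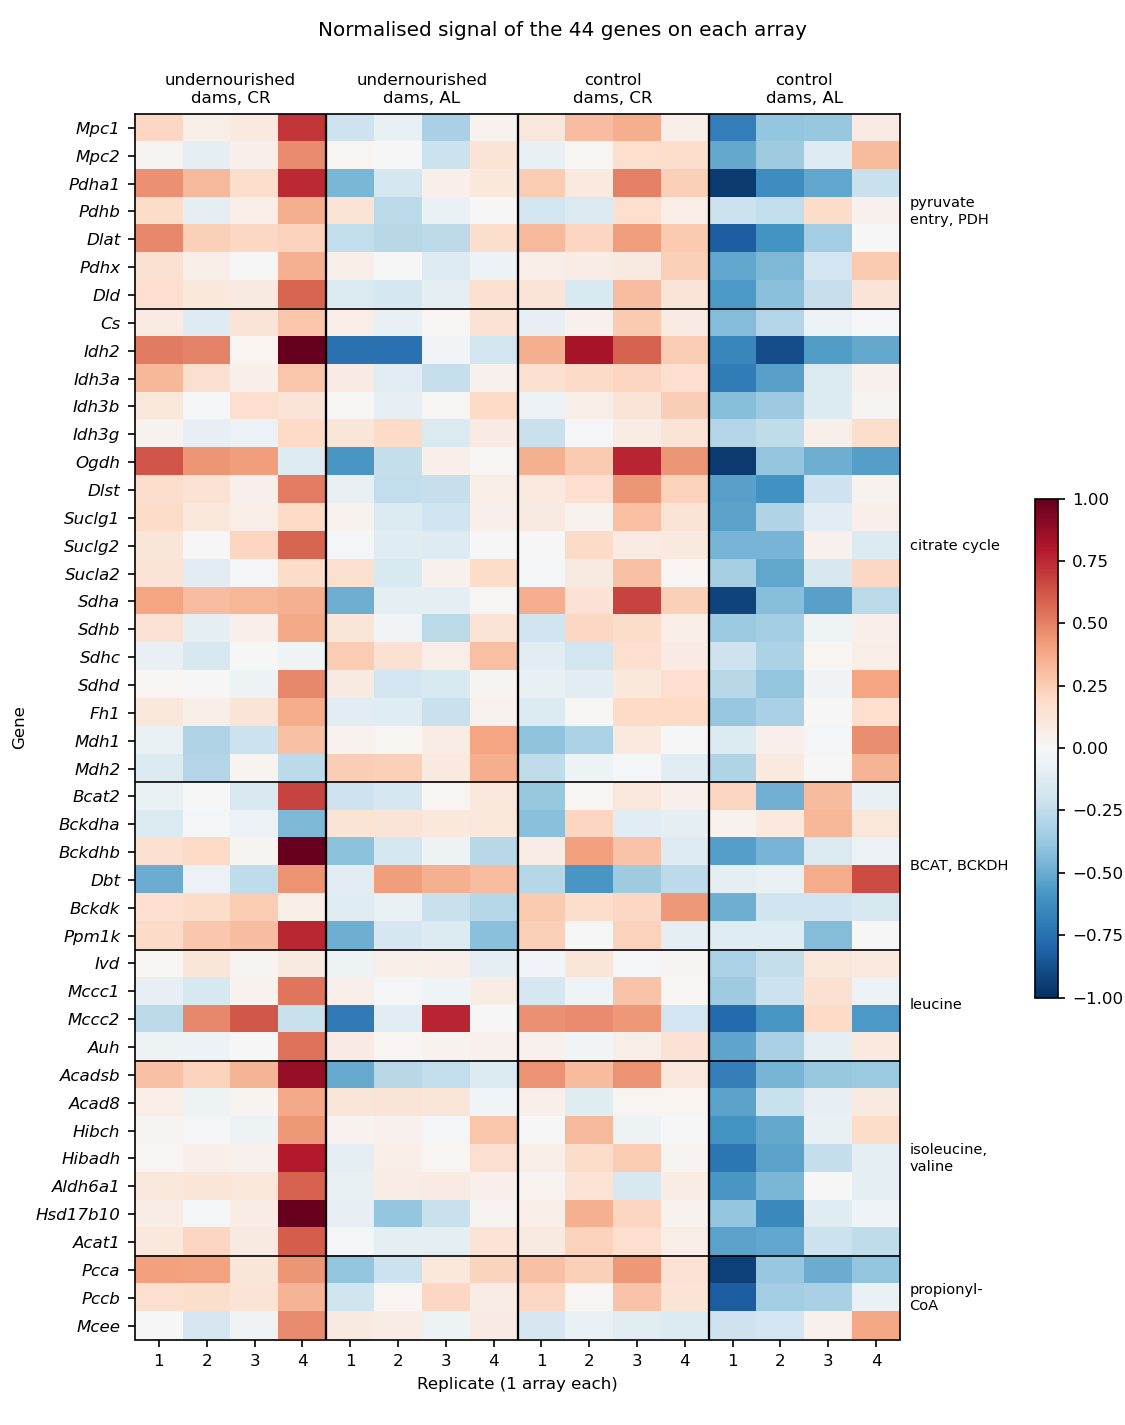
Signal of the 44 genes (rows, grouped by pathway step) on the 16 arrays (columns, 4 replicates per group), as log2 signal minus the gene's mean over all arrays. Control AL replicate 1 is blue in nearly every row, its median being -0.52, and undernourished CR replicate 4 is red in most rows, its median being 0.41.

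**Figure D3:**
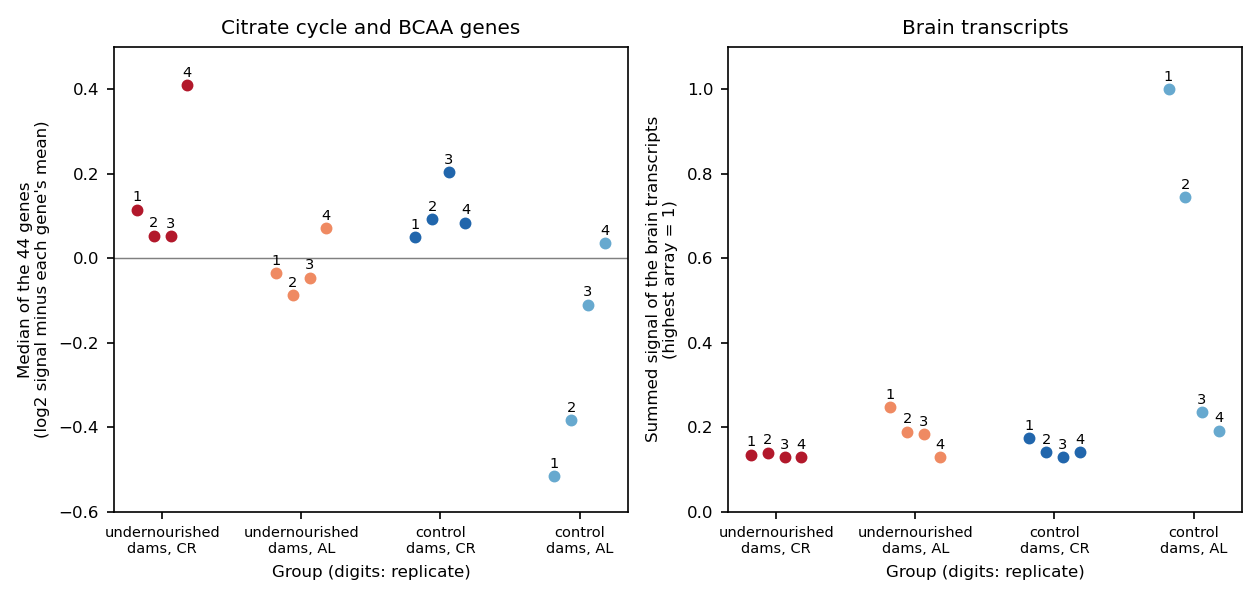
Left, the median over the 44 genes of log2 signal minus each gene's mean, by group and replicate (digits). Right, the summed signal of 30 brain transcripts relative to the highest array. Control AL replicates 1 and 2 are lowest on the left, at -0.52 and -0.38, and highest on the right, at 1 and 0.745.

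Among the 7 genes of pyruvate entry and pyruvate dehydrogenase, 1 rose under CR in undernourished offspring and none fell (10.3% and 9.82% of all genes). In control offspring 3 rose and none fell (16.8% and 15.1% of all genes). Pdha1 (chromosome X), the catalytic decarboxylase subunit that is the target of the pyruvate dehydrogenase kinases, had signals of 5.56, 5.43, 5.28 and 5.85 in undernourished CR, against 4.65, 4.93, 5.16 and 5.21 in undernourished AL. Its signals were 5.35, 5.20, 5.61 and 5.34 in control CR, against 4.14, 4.48, 4.58 and 4.88 in control AL. The CR and AL arrays did not overlap in either maternal group. Pdha1 was 1.46-fold higher in undernourished offspring (log2 difference 0.54 ± 0.18 SE, adjusted p = 0.0421) and 1.81-fold higher in control offspring (0.85 ± 0.18, adjusted p = 0.00221) by limma. The call in undernourished offspring was lost in 9 of the 16 fits that leave out 1 array, with an adjusted p up to 0.110. It was also lost with slide as a block (adjusted p = 0.0595) and with the replicate block (adjusted p = 0.0662). The mean over the gene's probes, fitting only the arrays compared and leaving out the arrays where skin or liver transcripts stood out lost it too. In control offspring it was lost with the brain covariate (0.55, adjusted p = 0.0653) and with a single control AL array (0.50, adjusted p = 0.30).

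Dlat (chromosome 9), the acetyltransferase core of the complex, had 5.22, 4.98, 4.94 and 4.97 in undernourished CR, against 4.50, 4.46, 4.48 and 4.92 in undernourished AL. It had 5.07, 4.96, 5.16 and 5.0 in control CR, against 3.92, 4.14, 4.40 and 4.74 in control AL. No CR array was as low as any AL array of the same maternal group, although undernourished AL replicate 4 came within 0.1 of the CR arrays. Dlat had a difference of 0.44 ± 0.16 in undernourished offspring that did not pass (adjusted p = 0.0701, limma) and was higher in control offspring (0.74 ± 0.16, adjusted p = 0.00312). The call was lost with the brain covariate (0.40, adjusted p = 0.0894), without both slide 1 control AL arrays (0.48, adjusted p = 0.0579) and with a single control AL array (0.30, adjusted p = 0.429). Mpc1, a subunit of the pyruvate carrier, rose in control offspring by 0.56 ± 0.17 (adjusted p = 0.0251), a call lost without control AL replicate 1 or 2 or control CR replicate 2 or 3 (adjusted p up to 0.0851), and also with the brain covariate (0.28), without both slide 1 control AL arrays (0.36) and with a single control AL array (0.13). Its partner Mpc2, the decarboxylase partner Pdhb, the binding protein Pdhx and the shared dehydrogenase subunit Dld did not pass in either group, with log2 differences of 0.13 to 0.30 in undernourished and 0.04 to 0.38 in control offspring.

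Of the 17 citrate cycle genes, 2 rose and 1 fell under CR in undernourished offspring (10.3% and 9.82% of all genes). In control offspring 6 rose and none fell (16.8% and 15.1% of all genes). Idh2 (chromosome 7), the NADP-dependent isocitrate dehydrogenase of the matrix, changed most. It had 4.11, 4.09, 3.60 and 4.85 in undernourished CR, against 2.84, 2.84, 3.56 and 3.40 in undernourished AL. It had 3.95, 4.41, 4.18 and 3.84 in control CR, against 2.93, 2.70, 3.03 and 3.07 in control AL. The groups did not overlap, though undernourished CR replicate 3 lay within 0.1 of undernourished AL replicate 3. Idh2 was 2.0-fold higher in undernourished offspring (1.0 ± 0.24, 95% interval 0.49 to 1.51, adjusted p = 0.00976, limma) and 2.24-fold higher in control offspring (1.16 ± 0.24, 0.65 to 1.67, adjusted p = 0.00218). It passed under all 29 alternatives in undernourished offspring and under 28 of 29 in control offspring, the exception being the fit with a single control AL array (1.02, adjusted p = 0.183).

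The NAD-dependent isocitrate dehydrogenase, which carries the main flux of the cycle, has the catalytic subunit Idh3a and the subunits Idh3b and Idh3g. Idh3a was at 0.26 ± 0.15 in undernourished offspring (adjusted p = 0.233, limma) and rose in control offspring (0.52 ± 0.15, adjusted p = 0.0147), a call lost without control AL replicate 1 (adjusted p = 0.0511), and also with the brain covariate (0.19), without both slide 1 control AL arrays (0.24) and with a single control AL array (0.15). Idh3b and Idh3g were at 0.06 and -0.04 in undernourished and at 0.32 and 0.08 in control offspring, with adjusted p-values of 0.748 and 0.859 in undernourished and 0.0549 and 0.707 in control offspring.

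Ogdh (chromosome 11), the decarboxylase subunit of the oxoglutarate dehydrogenase complex, had 4.64, 4.45, 4.43 and 3.88 in undernourished CR, against 3.42, 3.77, 4.06 and 4.02 in undernourished AL. It had 4.36, 4.27, 4.77 and 4.45 in control CR, against 3.05, 3.62, 3.52 and 3.46 in control AL. The control groups were clearly apart, and undernourished CR replicate 4 fell among the undernourished AL arrays. The difference in undernourished offspring was 0.53 ± 0.19 (adjusted p = 0.0642, limma), or 0.69 without that array (adjusted p = 0.0197), and Ogdh was 2.07-fold higher in control offspring (1.05 ± 0.19, adjusted p = 0.00102). Dlst, the succinyltransferase of the same complex, stood at 0.34 ± 0.15 in undernourished offspring (adjusted p = 0.130) and rose in control offspring (0.56 ± 0.15, adjusted p = 0.0119), a call lost with the brain covariate (0.29, adjusted p = 0.248), without both slide 1 control AL arrays (0.32, adjusted p = 0.187) and with a single control AL array (0.20). Suclg1, the shared subunit of the succinyl-CoA synthetases, rose by 0.36 ± 0.13 in control offspring (adjusted p = 0.0398), a call lost in 8 of the 16 fits without 1 array, with slide as a block (adjusted p = 0.0649), with the brain covariate (0.11) and without both slide 1 control AL arrays (0.17).

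Sdha (chromosome 13), the flavoprotein of succinate dehydrogenase, had 5.60, 5.51, 5.53 and 5.55 in undernourished CR, against 4.71, 5.11, 5.10 and 5.21 in undernourished AL. It had 5.56, 5.35, 5.87 and 5.44 in control CR, against 4.28, 4.77, 4.66 and 4.93 in control AL. Every CR array was above every AL array of its maternal group, and the 4 undernourished CR arrays lay within 0.1 of each other. Sdha was 1.43-fold higher in undernourished offspring (0.51 ± 0.16, adjusted p = 0.0326, limma) and 1.86-fold higher in control offspring (0.89 ± 0.16, adjusted p = 0.000762, the smallest of the 44 genes). In undernourished offspring the call was lost in 7 of the 16 fits without 1 array (adjusted p up to 0.0874, limma). It was also lost with slide as a block (adjusted p = 0.0555) and with the replicate block (adjusted p = 0.0839). Quantile normalisation and leaving out the arrays where skin or liver transcripts stood out lost it too. The other subunits of the enzyme did not pass: Sdhb, Sdhc and Sdhd had differences of 0.13, -0.26 and 0.17 in undernourished and 0.24, 0.10 and 0.10 in control offspring. Sdhd and Dlat lie on chromosome 9 with 3 annotated genes between them, and of the pair only Dlat passed, in control offspring.

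Cs, citrate synthase, which opens the cycle and is widely used as a gauge of mitochondrial content, had 8.41, 8.19, 8.45 and 8.60 in undernourished CR, against 8.39, 8.25, 8.34 and 8.47 in undernourished AL. It had 8.24, 8.37, 8.58 and 8.41 in control CR, against 7.89, 8.03, 8.26 and 8.32 in control AL. The arrays overlapped in both maternal groups. The difference was 0.05 ± 0.13 in undernourished (95% interval -0.22 to 0.32, adjusted p = 0.808, limma) and 0.27 ± 0.13 in control offspring (0.0051 to 0.54, adjusted p = 0.112). A second Cs probe did not pass in undernourished offspring (0.09 ± 0.15) and passed in control offspring (0.55 ± 0.15, adjusted p = 0.0104 over all probes). Cs also passed in control offspring with quantile normalisation, normexp, the authors' deposited log2 table and the mean over its probes. In undernourished offspring it passed with the authors' table only.

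Mdh2 (chromosome 5), the matrix malate dehydrogenase that closes the cycle, had 9.10, 8.95, 9.26 and 8.97 in undernourished CR, against 9.48, 9.47, 9.33 and 9.60 in undernourished AL. It had 8.98, 9.18, 9.22 and 9.13 in control CR, against 8.94, 9.34, 9.23 and 9.57 in control AL. The undernourished groups did not overlap and the control groups did. Mdh2 was lower under CR in undernourished offspring (-0.40 ± 0.13, adjusted p = 0.0455, limma), a call lost in 13 of the 16 fits without 1 array, with slide as a block (adjusted p = 0.0794) and with the replicate block (adjusted p = 0.0885). The difference was -0.011 with quantile normalisation and turned to 0.21 in the authors' deposited log2 table. Its cytosolic counterpart Mdh1 was at -0.21 ± 0.17 in undernourished and -0.24 ± 0.17 in control offspring, and neither passed. Fumarase, Fh1, was at 0.27 ± 0.14 and 0.20 ± 0.14, and neither passed.

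**Figure D4:**
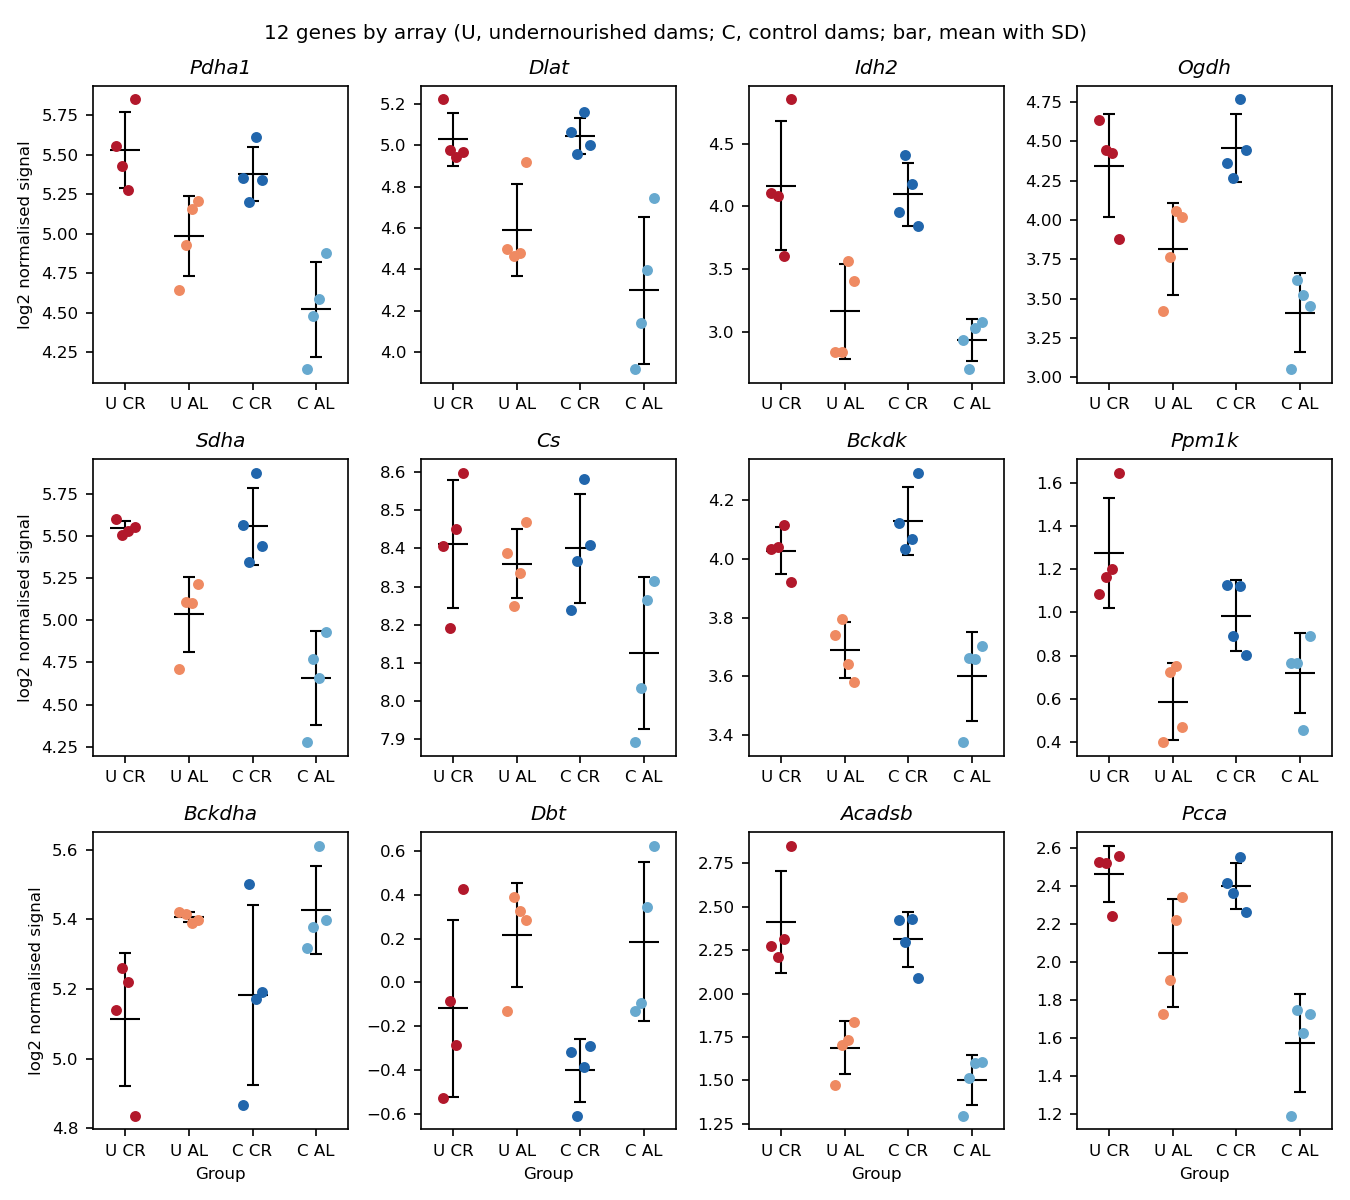
Log2 normalised signal of 12 genes on each array, in offspring of undernourished dams (U) and of control dams (C) on CR or AL, with the mean and SD of 4 arrays (vertical scales differ between genes). The CR arrays lie above the AL arrays of the same dams for Pdha1, Sdha, Bckdk, Acadsb and Idh2, while Cs overlaps and Dbt and Bckdha have lower CR means.

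In the first steps of branched-chain amino acid breakdown, 2 of 6 genes rose under CR in undernourished offspring and none fell (10.3% and 9.82% of all genes). In control offspring 1 rose and 1 fell (16.8% and 15.1% of all genes). Bckdk (chromosome 7), the kinase that inactivates the ketoacid dehydrogenase, had 4.03, 4.04, 4.12 and 3.92 in undernourished CR, against 3.74, 3.80, 3.64 and 3.58 in undernourished AL. It had 4.12, 4.03, 4.07 and 4.29 in control CR, against 3.37, 3.66, 3.66 and 3.70 in control AL. All CR arrays were above all AL arrays. Bckdk was 1.27-fold higher in undernourished offspring (0.34 ± 0.11, adjusted p = 0.0367, limma) and 1.44-fold higher in control offspring (0.53 ± 0.11, adjusted p = 0.00187). In undernourished offspring the call was lost in 6 of the 16 fits without 1 array (adjusted p up to 0.0940, limma). It was also lost with slide as a block (adjusted p = 0.0691) and with the replicate block (adjusted p = 0.0873). Quantile normalisation, fitting only the arrays compared and leaving out the arrays where skin or liver transcripts stood out lost it too.

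Ppm1k (chromosome 6), the phosphatase that reverses the action of Bckdk, had 1.08, 1.17, 1.20 and 1.65 in undernourished CR, against 0.40, 0.73, 0.75 and 0.47 in undernourished AL. It had 1.13, 0.89, 1.12 and 0.80 in control CR, against 0.77, 0.77, 0.46 and 0.89 in control AL. The undernourished groups were apart and the control groups overlapped. Ppm1k was 1.61-fold higher in undernourished offspring (0.69 ± 0.15, 95% interval 0.37 to 1.0, adjusted p = 0.00569, limma), a call kept under all 29 alternatives, and it was at 0.26 ± 0.15 in control offspring (-0.05 to 0.58, adjusted p = 0.192). The difference between these effects, tested as the interaction of both diets, was 0.42 ± 0.21 with an adjusted p of 0.533. A second Ppm1k probe gave 0.37 ± 0.20 in undernourished and -0.08 ± 0.20 in control offspring and passed in neither.

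The ketoacid dehydrogenase itself is built from Bckdha and Bckdhb, which form its decarboxylase, and Dbt, its acyltransferase core. Bckdha, the subunit that Bckdk phosphorylates, had 5.14, 5.26, 5.22 and 4.84 in undernourished CR, against 5.42, 5.41, 5.39 and 5.40 in undernourished AL. It had 4.87, 5.50, 5.17 and 5.19 in control CR, against 5.32, 5.38, 5.61 and 5.40 in control AL. The undernourished CR arrays were all below the undernourished AL arrays, and the control groups overlapped. The differences were -0.29 ± 0.14 (adjusted p = 0.14, limma) in undernourished and -0.24 ± 0.14 (adjusted p = 0.187) in control offspring, and both turned positive in the authors' deposited log2 table. Bckdha passed in control offspring with quantile normalisation. Bckdhb was at 0.60 ± 0.21 in undernourished and 0.47 ± 0.21 in control offspring (adjusted p = 0.0585 and 0.109), so its differences ran opposite to those of its partner. A further Bckdhb probe passed in both (0.66 ± 0.21, adjusted p = 0.0321 over all probes, and 0.57 ± 0.21, adjusted p = 0.0446).

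Dbt (chromosome 3) had -0.53, -0.08, -0.28 and 0.42 in undernourished CR, against -0.13, 0.39, 0.33 and 0.28 in undernourished AL. It had -0.32, -0.61, -0.39 and -0.29 in control CR, against -0.13, -0.09, 0.34 and 0.62 in control AL. The control groups did not overlap, while undernourished CR replicate 4 lay above every undernourished AL array. Dbt was at -0.33 ± 0.21 in undernourished offspring (adjusted p = 0.279, limma) and lower under CR in control offspring (-0.59 ± 0.21, adjusted p = 0.0449). The call in control offspring was lost in 11 of the 16 fits without 1 array, with slide as a block (adjusted p = 0.0651) and with the authors' deposited table (-0.04, adjusted p = 0.864). Bcat2, the mitochondrial transaminase that starts the pathway, was at 0.18 ± 0.20 in undernourished and -0.04 ± 0.20 in control offspring and did not pass.

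Beyond the ketoacid dehydrogenase, none of the 4 leucine genes passed. Ivd, isovaleryl-CoA dehydrogenase, Mccc1 and Mccc2, the subunits of methylcrotonyl-CoA carboxylase, and Auh, the hydratase that follows, had differences of 0.06 to 0.17 in undernourished and 0.12 to 0.73 in control offspring, the highest in both being Mccc2 (0.73 ± 0.31, adjusted p = 0.0863 in control offspring, limma). Further probes of Ivd (0.47 ± 0.12, adjusted p = 0.00836 over all probes) and Mccc1 (0.57 ± 0.16, adjusted p = 0.0127) passed in control offspring.

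Of the 7 isoleucine and valine genes, 1 rose under CR in undernourished offspring and none fell (10.3% and 9.82% of all genes). In control offspring 3 rose and none fell (16.8% and 15.1% of all genes). Acadsb (chromosome 7), the short and branched chain acyl-CoA dehydrogenase that acts on the isoleucine product, had 2.27, 2.21, 2.32 and 2.85 in undernourished CR, against 1.48, 1.70, 1.74 and 1.84 in undernourished AL. It had 2.43, 2.30, 2.43 and 2.09 in control CR, against 1.30, 1.51, 1.60 and 1.61 in control AL. All 8 CR arrays were above all 8 AL arrays. Acadsb was 1.65-fold higher in undernourished offspring (0.72 ± 0.15, 95% interval 0.41 to 1.04, adjusted p = 0.00421, limma) and 1.75-fold higher in control offspring (0.81 ± 0.15, 0.49 to 1.12, adjusted p = 0.00105). It passed under all 29 alternatives in undernourished offspring and under 28 of 29 in control offspring (0.71, adjusted p = 0.14 with a single control AL array). Hibadh, 3-hydroxyisobutyrate dehydrogenase of the valine branch, rose in control offspring by 0.53 ± 0.18 (adjusted p = 0.0318), a call lost without control AL replicate 1 or 2 or control CR replicate 1, 2 or 3 (adjusted p up to 0.103), with slide as a block (adjusted p = 0.0503), with the brain covariate (0.24) and without both slide 1 control AL arrays (0.30). Acat1, the mitochondrial thiolase, rose there by 0.52 ± 0.13 (adjusted p = 0.00714), a call lost with the brain covariate (0.35, adjusted p = 0.133), without both slide 1 control AL arrays (0.37, adjusted p = 0.106) and with a single control AL array (0.39). Acad8, Hibch, Aldh6a1 and Hsd17b10 did not pass, with differences of 0.01 to 0.47 in undernourished and 0.18 to 0.47 in control offspring.

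Propionyl-CoA carboxylase is made of Pcca and Pccb, and Mcee is the epimerase that follows. Pcca (chromosome 14) had 2.53, 2.52, 2.24 and 2.56 in undernourished CR, against 1.72, 1.91, 2.22 and 2.34 in undernourished AL. It had 2.42, 2.36, 2.56 and 2.26 in control CR, against 1.19, 1.75, 1.63 and 1.72 in control AL. The control groups were apart and the undernourished groups overlapped in 1 array each. Pcca was at 0.41 ± 0.16 in undernourished offspring (adjusted p = 0.0769, limma) and 1.77-fold higher in control offspring (0.83 ± 0.16, adjusted p = 0.00136). Pccb was at 0.18 ± 0.15 in undernourished offspring and rose in control offspring by 0.55 ± 0.15 (adjusted p = 0.0102). That call was lost with the brain covariate (0.26, adjusted p = 0.235), without both slide 1 control AL arrays (0.36, adjusted p = 0.101) and with a single control AL array (0.23). Mcee was at 0.02 ± 0.15 and -0.13 ± 0.15 and passed in neither.

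The 5 genes Pdha1, Idh2, Sdha, Bckdk and Acadsb were called higher in both maternal groups, which is 83.3% of the 6 higher in undernourished and 33.3% of the 15 higher in control offspring. The difference had the higher value in control offspring for 35 of the 44 genes and for 56.6% of all genes. The order of the medians turned without both slide 1 control AL arrays, to 0.18 in undernourished and 0.12 in control offspring. The medians over all genes were then -0.0036 and -0.052. It turned with the brain covariate too, to 0.15 and 0.077, beside -0.017 and -0.069 over all genes. The interaction of both diets was called by limma for none of the 44 genes and for 1 of all genes (0.00403%), and at an unadjusted p under 0.05 it held 1 of the 44 and 2375 of all genes. With slide as a fixed block the interaction was called higher for 10 of all genes and lower for 2, and the calls among the 44 in that fit are not given here. In the fit without a block, no difference between the maternal groups in the response to CR was shown for any gene named. For 20 genes the array carried further probes, 21 in all. Of these, 17 had the same direction as the probe used in undernourished and 18 in control offspring. For no gene did the probe used and a further probe both pass in opposite directions. With adjustment over all probes, the probe used passed for 3 of these genes in undernourished offspring, and a further probe passed too for 1. In control offspring it passed for 6, and a further probe passed too for all 6. For 4 genes in undernourished and 6 in control offspring only a further probe passed.

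RefSeq promoter sequences of build GRCm38.p6 were on hand for 40 of the 44 genes, as 50 promoters, and the 250 bases before each start were searched on both strands for 4 motifs. CCAAT was found in 60.0% of the 50 promoters and in 33.8% of all 32851 promoters. The consensus motif of NRF1, a regulator of nuclear genes for mitochondrial proteins, was in 10% of them (Sucla2, Sdha, Sdhd, Hibadh and Pccb) and in 3.74% of all. The AAGGTCA element bound by oestrogen-related receptors was in none of the 50 and in 4.08% of all, and the E-box CACGTG in 8.00% and 6.02%. Of the 5 genes called higher in both maternal groups, Pdha1 and Acadsb held none of these 4 motifs in this window. The windows of the other 3 are given here because they carry matches, with the matched letters in capitals, which are CCAAT in Idh2 and Bckdk, and CCAAT on the opposite strand followed by 3 copies of the NRF1 motif on the opposite strand in Sdha.
Idh2, chr7:80115351-80115600, minus strand: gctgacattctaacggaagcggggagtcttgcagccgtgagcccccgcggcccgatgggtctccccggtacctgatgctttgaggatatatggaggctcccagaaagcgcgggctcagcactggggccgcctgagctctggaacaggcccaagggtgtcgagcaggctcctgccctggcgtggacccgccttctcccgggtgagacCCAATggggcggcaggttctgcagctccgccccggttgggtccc
Sdha, chr13:74350241-74350490, minus strand: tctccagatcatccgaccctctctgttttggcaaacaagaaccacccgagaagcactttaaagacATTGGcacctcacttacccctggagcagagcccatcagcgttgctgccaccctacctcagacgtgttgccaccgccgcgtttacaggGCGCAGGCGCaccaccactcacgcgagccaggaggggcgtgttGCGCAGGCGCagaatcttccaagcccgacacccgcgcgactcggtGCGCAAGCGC
Bckdk, chr7:127903823-127904072, plus strand: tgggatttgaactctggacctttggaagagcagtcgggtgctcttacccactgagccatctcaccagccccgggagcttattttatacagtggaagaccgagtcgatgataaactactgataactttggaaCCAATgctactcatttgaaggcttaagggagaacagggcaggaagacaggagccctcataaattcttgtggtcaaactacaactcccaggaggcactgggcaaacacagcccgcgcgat

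Other genes of the same pathways were read from a list of 51, of which 49 were measured. Under CR, 10 were higher and 3 lower in undernourished offspring, and 13 were higher and 2 lower in control offspring. Of all genes 10.3% and 9.82%, and 16.8% and 15.1%, were called in these directions. Pdk4, a kinase that shuts off pyruvate dehydrogenase and is induced by fasting, had 6.11, 7.40, 3.61 and 6.95 in undernourished CR, against 8.58, 8.67, 8.61 and 9.09 in undernourished AL. It had 3.10, 4.01, 7.33 and 7.08 in control CR, against 8.08, 8.23, 8.59 and 8.50 in control AL. Every CR array was below every AL array, and the CR arrays spread over more than 3 log2 units in both maternal groups. Pdk4 was lower by -2.72 ± 0.88 in undernourished (adjusted p = 0.0422, limma) and -2.97 ± 0.88 in control offspring (adjusted p = 0.0188). The phosphatase Pdp1, which turns pyruvate dehydrogenase on, had 3.45, 3.29, 3.72 and 3.23 in undernourished CR, against 2.49, 2.23, 2.0 and 2.05 in undernourished AL. It had 3.92, 3.84, 3.28 and 3.26 in control CR, against 2.13, 2.37, 1.92 and 3.13 in control AL. Again no array overlapped, and the differences were 1.23 ± 0.24 (adjusted p = 0.00307) and 1.19 ± 0.24 (adjusted p = 0.00186). The kinase Pdk2 was higher in both, at 0.52 ± 0.15 and 0.69 ± 0.15.

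The cytosolic transaminase Bcat1, which is abundant in brain, was lower by -2.16 ± 0.63 in undernourished (adjusted p = 0.0253, limma) and by -3.98 ± 0.63 in control offspring (adjusted p = 0.000362), beside median differences of the brain transcripts of -2.55 in undernourished and -4.73 in control offspring. The part of that tissue in the result was not tested. In undernourished offspring the carriers Slc25a13 (aspartate and glutamate, 1.31 ± 0.27) and Slc25a1 (citrate, 1.08 ± 0.25) were higher and pyruvate carboxylase, Pcx, was lower (-1.03 ± 0.26), beside 0.16, 0.28 and -0.12 in control offspring. In control offspring Pdpr, the regulatory subunit of the pyruvate dehydrogenase phosphatase (0.70 ± 0.21), and the malic enzyme Me1 (0.57 ± 0.16) were higher, beside 0.20 and 0.39 in undernourished offspring. The interaction of both diets passed for none of these 5 genes (limma, adjusted p of 0.495 to 0.806).

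Maternal undernutrition was compared with normal maternal feeding within each offspring diet, to ask whether it left a trace in these genes. No gene of the 44 passed in CR or in AL offspring. In CR offspring limma called none of all genes tested (0%), and none of the 44 but 709 of all genes had an unadjusted p under 0.05. The median of the 44 genes was 0.06, beside -0.0024 over all genes. The smallest p-values belonged to Ppm1k, Aldh6a1 and Dbt. Ppm1k had 1.08, 1.17, 1.20 and 1.65 in undernourished CR, against 1.13, 0.89, 1.12 and 0.80 in control CR, a difference of 0.29 ± 0.15 with a 95% interval of -0.03 to 0.61. Aldh6a1, methylmalonate semialdehyde dehydrogenase of the valine branch, had 5.08, 5.09, 5.08 and 5.55 in undernourished CR, against 4.99, 5.10, 4.80 and 5.04 in control CR (0.22 ± 0.15, interval -0.10 to 0.53). The high end of both came from undernourished CR replicate 4. Dbt was at 0.28 ± 0.21 (interval -0.17 to 0.73).

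In AL offspring limma called 3 genes of all higher and 5 lower (0.0121% and 0.0201%, 0.0322% in all), none of them among the 44, and 9 of the 44 and 4716 of all genes had an unadjusted p under 0.05. The median of the 44 was 0.20, beside 0.07 over all genes, and 41 of the 44 differences were above 0. Pcca had 1.72, 1.91, 2.22 and 2.34 in undernourished AL, against 1.19, 1.75, 1.63 and 1.72 in control AL (0.48 ± 0.16, interval 0.14 to 0.82, adjusted p = 0.159). Pccb had 0.76, 0.97, 1.16 and 1.03 in undernourished AL, against 0.13, 0.61, 0.63 and 0.89 in control AL (0.42 ± 0.15, adjusted p = 0.163). Acat1 had 5.10, 5.01, 5.02 and 5.25 in undernourished AL, against 4.58, 4.60, 4.90 and 4.86 in control AL (0.36 ± 0.13, adjusted p = 0.166). The groups overlapped for Pcca and Pccb and not for Acat1. With the replicate number as a block, limma called 261 of all genes higher and 1172 lower (1.05% and 4.72%), and still none of the 44, with adjusted p-values of 0.0808 for Pcca and 0.0900 for Pccb. With slide as a fixed block, 410 of all genes were called higher and 1560 lower. The calls among the 44 in that fit are not given here.

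The median of the AL differences was above that of all genes by less on slide 2 than on slide 1. On slide 1 the median of the 44 genes was 0.36 (undernourished minus control) and 42 of the 44 were above 0, beside a median of 0.18 over all genes. On slide 2 it was 0.0074 and 24 were above 0, beside -0.05 over all genes. In CR offspring it was 0.03 on slide 3 and 0.08 on slide 4. Slide 1 holds control AL replicates 1 and 2, with brain transcript sums of 1 and 0.745 against 0.247 and 0.189 in the undernourished AL replicates beside them. Without these 2 control arrays the median of the 44 in AL offspring was 0.00087, beside -0.050 over all genes. With the brain transcript sum as a covariate it was -0.022, beside -0.049 over all genes. Pcca differed in the same direction on both slides, by 0.35 on slide 1 and 0.61 on slide 2, as did Pccb (0.49 and 0.34), Acat1 (0.47 and 0.26), Pdha1 (0.48 and 0.45), Sdha (0.39 and 0.36) and Ogdh (0.26 and 0.55), while Idh2 differed by 0.02 on slide 1 and 0.43 on slide 2. Without control AL replicate 4, Pccb alone of the 44 passed (0.52, adjusted p = 0.0365, limma). In that fit 614 of the 24826 genes tested were called higher and 1673 lower. Averaged over both offspring diets, maternal undernutrition was called by limma for none of the 44 and none of all genes (0%), with 6 of the 44 and 2578 of all genes at an unadjusted p under 0.05. This average was called higher for 4 of all genes and lower for 11 with slide as a fixed block.

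**Figure D5:**
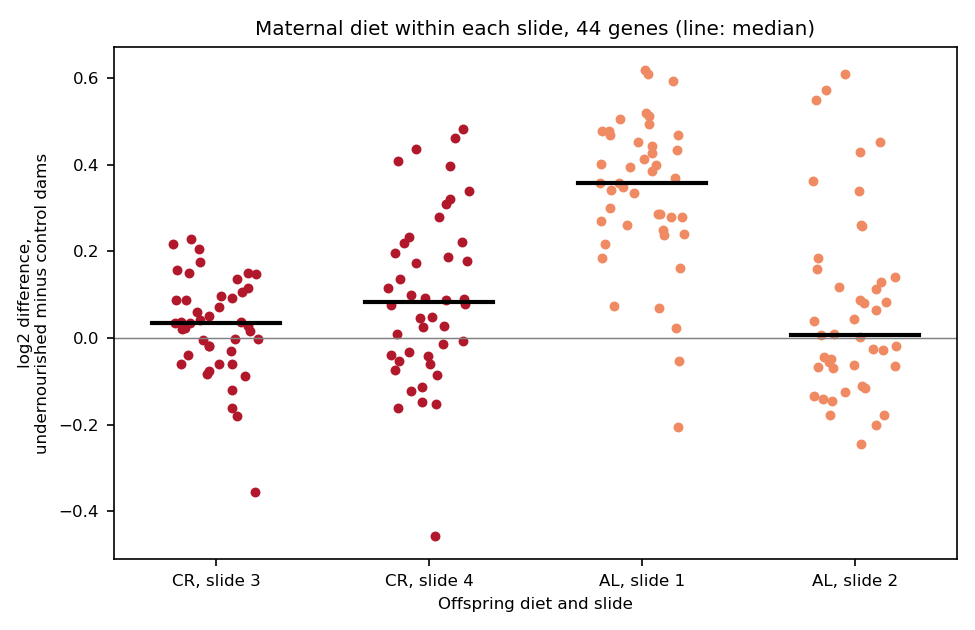
Log2 difference between undernourished and control dams (vertical axis) for each of the 44 genes within each slide (horizontal axis, by offspring diet), every point the difference of the means of 2 arrays a side, with the median as a line. The slide 1 median is 0.36 and the others lie between 0.0074 and 0.08.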

How the data were processed

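Expression was measured on 16 1-colour Agilent mouse arrays, 1 per pool of 2 mice. Per the file headers, and with the version from the submitters' processing notes, the deposited intensity of a spot is the processed signal of Agilent Feature Extraction 10.5.1.1, background-subtracted within the array and not normalised between arrays. The deposited files hold further values per spot, among them flags scored 0 or 1 and the local background. A second deposited table holds the authors' own log2 values and served as an alternative. Every probe's median over its 16 columns is 0, and differences between arrays followed those of the scanner signal with a slope whose median was 0.54 for arrays of the same scan day (correlation 0.865) and 0.59 between days for CR minus AL (correlation 0.853, intercept 0.31), over 32079 probes. Its direction and centring are thus known, while how it was normalised is not given here by any source. Its column medians, in replicate order, are 0.027, 0.033, 0.034 and 0.017 for undernourished CR. For undernourished AL they are -0.044, -0.024, -0.0086 and -0.0087. For control CR they are 0.027, 0.030, 0.031 and 0.037, and for control AL -0.088, -0.10, -0.027 and -0.0041.

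Control spots and outlier spots were dropped, none of the remaining spots was saturated, and copies of a probe were averaged. The 75th percentile of each array was subtracted on the log2 scale, and a probe had to be well above background on 4 or more arrays. Between 66.4% and 78.5% of spots were well above background, and the number of arrays limits the precision. Accessions of 24844 probes matched RefSeq's mouse table (GRCm38.p6) and 16330 did not and kept the file's name. One mean per group was fitted over 16 arrays with limma 3.58.1 in R 4.3.3 (lmFit, eBayes), two-sided, with Benjamini-Hochberg adjustment over 24826 genes and calls at an adjusted p under 0.05. The error given with a log2 difference is limma's standard error (±). The code was tested on simulated data. Alternatives were the scaling, the background correction, the authors' table, the probe filter, the choice of probe, the arrays fitted, slide and replicate as blocks, the brain transcript sum as a covariate, and leaving out arrays. Normexp on the median signal and the fits without both slide 1 control AL arrays or without the arrays where skin or liver transcripts stood out were added after seeing the data.

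The 44 genes, the gene lists and the marker lists were chosen with earlier results of these data known. By rule, every gene called in a pairwise comparison is named, signals per array are given for the called genes with the 8 largest changes under CR, for the 3 smallest p-values under maternal diet, and for Cs, Ogdh, Pdha1, Bckdha, Bckdk and Ppm1k, and up to 6 other pathway genes are named per CR comparison. The deviations of same-numbered undernourished and control arrays correlated at 0.39, 0.12, 0.11 and 0.44 in AL and at 0.23, 0.11, 0.02 and 0.06 in CR. The control array of the same number was the best match for undernourished AL replicates 1, 3 and 4, and for undernourished CR replicate 1 only. Such arrays also share a slide, and whether replicate numbers mark pairs was not tested. Between same-numbered CR and AL arrays of one maternal group the correlations were -0.14 to 0.08.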

Additional observations from a re-analysis of the deposited data

Results flagged for a closer look

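In 19 of the 176 combinations of gene and group, 1 array lay far from the other 3 by Dixon's test at the 95% level, which chance does in about 1 of 20 groups. All values are log2 signals relative to the array's 75th percentile. In 9 of the 19 the array was undernourished CR replicate 4, above the other 3: Dld at 5.78 (others 5.29 to 5.37), Sdhd at 6.93 (others 6.40 to 6.47), Bckdhb at 4.48 (others 3.40 to 3.58), Auh at 5.78 (others 5.18 to 5.24), Acadsb at 2.85 (others 2.21 to 2.32), Hibch at 4.52 (others 4.03 to 4.11), Hibadh at 6.26 (others 5.49 to 5.52), Aldh6a1 at 5.55 (others 5.08 to 5.09) and Hsd17b10 at 5.81 (others 4.74 to 4.83). This array was the highest of its group for 33 of the 44 genes. Without it, 5 genes were called under CR in undernourished offspring, where 9.36% of all genes were called higher and 8.82% lower, and the median difference of the 44 was 0.10 instead of 0.18. In control offspring 19 were then called, where the shares were 18.5% and 15.6%. Undernourished CR replicate 1 was the highest of its group for Dlat at 5.22 (others 4.94 to 4.98). Undernourished AL replicate 4 was the highest of its group for Dlat at 4.92 (others 4.46 to 4.50) and Mdh1 at 7.36 (others 6.99 to 7.04). Control CR replicate 4 was the highest of its group for Pdhx at 4.41 (others 4.24 to 4.27). Control AL replicate 1 was the lowest of its group for Bckdk at 3.37 (others 3.66 to 3.70). Control CR replicate 4 was the lowest of its group for Mccc2 at -0.93 (others -0.31 to -0.27). Undernourished AL replicate 4 was the lowest of its group for Acad8 at 0.53 (others 0.69 to 0.69). Control CR replicate 2 was the highest of its group for Hibch at 4.41 (others 4.04 to 4.08). Undernourished CR replicate 3 was the lowest of its group for Pcca at 2.24 (others 2.52 to 2.56). Undernourished AL replicate 3 was the lowest of its group for Mcee at 2.54 (others 2.66 to 2.68).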

How the results depend on the processing

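For the 44 genes in undernourished offspring, the count called under CR was 7 and its median difference 0.18. The count was 20 with normexp background correction (added after seeing the data), 41 with the authors' table, 11 with the mean over probes, 4 with only the arrays compared, 3 with slide as a block, 3 with the replicate block, 3 without the arrays where skin or liver transcripts stood out (added), and 3 to 9 leaving out 1 array. Leaving out 1 array, 7.46% to 11.9% of all genes were called higher in undernourished offspring and 7.03% to 11.4% lower. The median was 0.77 with the authors' table and 0.10 to 0.22 leaving out 1 array. In control offspring the count was 16 and the median 0.32. The count was 26 with normexp, 40 with the authors' table, 7 with the brain covariate, 8 without both control AL arrays of slide 1 (added), 0 without the arrays where skin or liver transcripts stood out, 16 with the replicate block and 12 to 20 leaving out 1 array. The median was 0.16 with quantile normalisation, equal to the 0.16 of all genes, 0.76 with the authors' table, 0.077 with the brain covariate, 0.12 without both slide 1 arrays, 0.084 without the skin or liver arrays and 0.25 to 0.42 leaving out 1 array. Under maternal diet in AL offspring the median was -0.022 with the brain covariate, 0.00087 without both slide 1 arrays and -0.043 without the skin or liver arrays. Over all genes it was -0.049, -0.050 and -0.090 in the same order. Leaving out 1 array, the median of the 44 was 0.11 to 0.31, with 0 or 1 gene called. The 1 gene was called without control AL replicate 4, where 614 of all genes were higher and 1673 lower. In CR offspring it ranged from -0.02 to 0.11 leaving out 1 array, with 0 called. The cause was not tested, except that the alternatives that leave out arrays fit fewer of them.

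Single genes that turned were Cs in undernourished offspring without undernourished CR replicate 4 (-0.011), and, with the authors' table, Mdh2 (0.21) and Bckdha (0.33) in undernourished and Bckdha (0.19) in control offspring. Scaling moved all genes too: the median CR difference over all genes was -0.24 and -0.17 with normexp and 0.24 and 0.29 with the authors' table, in undernourished and control offspring. Normexp called 3022 of all genes higher and 10158 lower in undernourished and 4213 higher and 8423 lower in control offspring, and with the authors' log2 values 10322 were higher and 1528 lower in undernourished and 11383 higher and 2608 lower in control offspring. The replicate block under maternal diet called none of the 44 genes in either offspring diet, for the interaction or for the average. Normexp on the mean signal was not run, because the files used here hold the median signal only.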
